A study of Homo sapiens with 40 samples.

Results

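The quantity described here is the difference between 2 responses to loss of QKI: the log2 fold change after a QKI siRNA in Jurkat cells minus the log2 fold change after a QKI shRNA in cells labelled HPB-ALL. It rests on 16 of the 40 libraries of the series, all 4 libraries of each of 4 groups, and on the 15730 genes that had enough counts in both experiments. The first 2 groups are Jurkat cells, an established T-cell acute lymphoblastic leukaemia (T-ALL) line grown in 10% fetal calf serum, electroporated with either a QKI siRNA or a non-targeting control (NTC) siRNA. The other groups are cells labelled HPB-ALL, also a T-ALL line, grown in 20% serum and spun with virus that carried either a QKI shRNA vector (shQKI) or a non-targeting one (shNTC). The series' design text calls the 4 libraries of a group biological replicates, and no label gives a time after delivery or the sequence of either agent. The RNA is labelled as total in Jurkat and as polyadenylated in the cells labelled HPB-ALL. Line, agent, delivery, serum and kind of RNA all change together between the experiments, so their parts in any difference cannot be told apart. In the count table the Jurkat controls are headed shNTC, while their labels call them NTC siRNA.

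QKI (quaking) belongs to the STAR proteins, which bind RNA and in which a KH domain lies between QUA domains. The protein recognises a bipartite RNA sequence, the QKI response element, and is known for its roles in alternative splicing, circular RNA formation, RNA stability and translation. Its best studied setting is the myelinating glia of the nervous system, and it is also expressed in blood cells. A gene-level count does not show a change in splicing unless the total of reads on the gene changes with it.

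The 2 experiments were not of the same precision and not of the same kind of cell. Deposited totals were 68379879 to 134209287 counts per Jurkat library and 81048583 to 134916505 per library labelled HPB-ALL. The median standard error of a gene's log2 fold change was 0.0891 in Jurkat and 0.0597 in the cells labelled HPB-ALL, a ratio of 1.49. The summed level of 11 T-cell markers was 2410 to 2660 CPM (counts scaled to a library total of 1000000) in Jurkat. It was 0.899 to 1.19 CPM in the knockdown libraries labelled HPB-ALL, against 6730 to 8850 CPM in the 4 untreated HPB-ALL libraries. TLX3, a homeobox gene expressed in untreated HPB-ALL at 170 to 301 CPM, had 0 counts in all 16 knockdown libraries. The summed level of 17 myeloid markers was 6100 to 6500 CPM with shNTC, 5670 to 5830 CPM with shQKI, 54.0 to 88.1 CPM in Jurkat and 17.5 to 36.3 CPM in untreated HPB-ALL. With shNTC, CTSG and ELANE were the highest of these, at 1720 and 1690 CPM on average. There 13 of the 17 averaged over 1 CPM, and MPO, CD14, CD68 and S100A8 did not (0.0289 to 0.245 CPM). The libraries labelled HPB-ALL thus lacked the defining T-cell transcripts, and "labelled HPB-ALL" is used throughout as the name of those 8 libraries.

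QKI itself fell in both experiments and fell further in Jurkat. The gene lies at chr6:163414000-163578596 (GRCh38, plus strand). With the control siRNA, Jurkat libraries 1 to 4 held 158, 188, 139 and 138 CPM of QKI. With the QKI siRNA they held 26.6, 18.8, 18.2 and 26.3 CPM, so that 14.4% of the control mean remained. The libraries labelled HPB-ALL held 107, 106, 104 and 110 CPM with shNTC and 55.3, 55.7, 56.7 and 58.7 CPM with shQKI, so that 53.1% remained. The means were 156 ± 23.5 and 22.5 ± 4.58 CPM in Jurkat and 107 ± 2.71 and 56.6 ± 1.49 CPM in the other experiment (SD, n = 4 each). The log2 fold change was -2.80 (SE 0.12) in Jurkat and -0.91 (SE 0.03) with the shRNA. The difference of -1.89 (SE 0.12, 95% interval -2.15 to -1.62) passed the test (edgeR adjusted p = 7.45e-06), and the 4 pair ratios of Jurkat did not overlap the 4 shRNA ratios. Every QKI siRNA library lay below every QKI shRNA library, and the experiments therefore compare knockdowns of unequal depth.

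**Figure D1:**
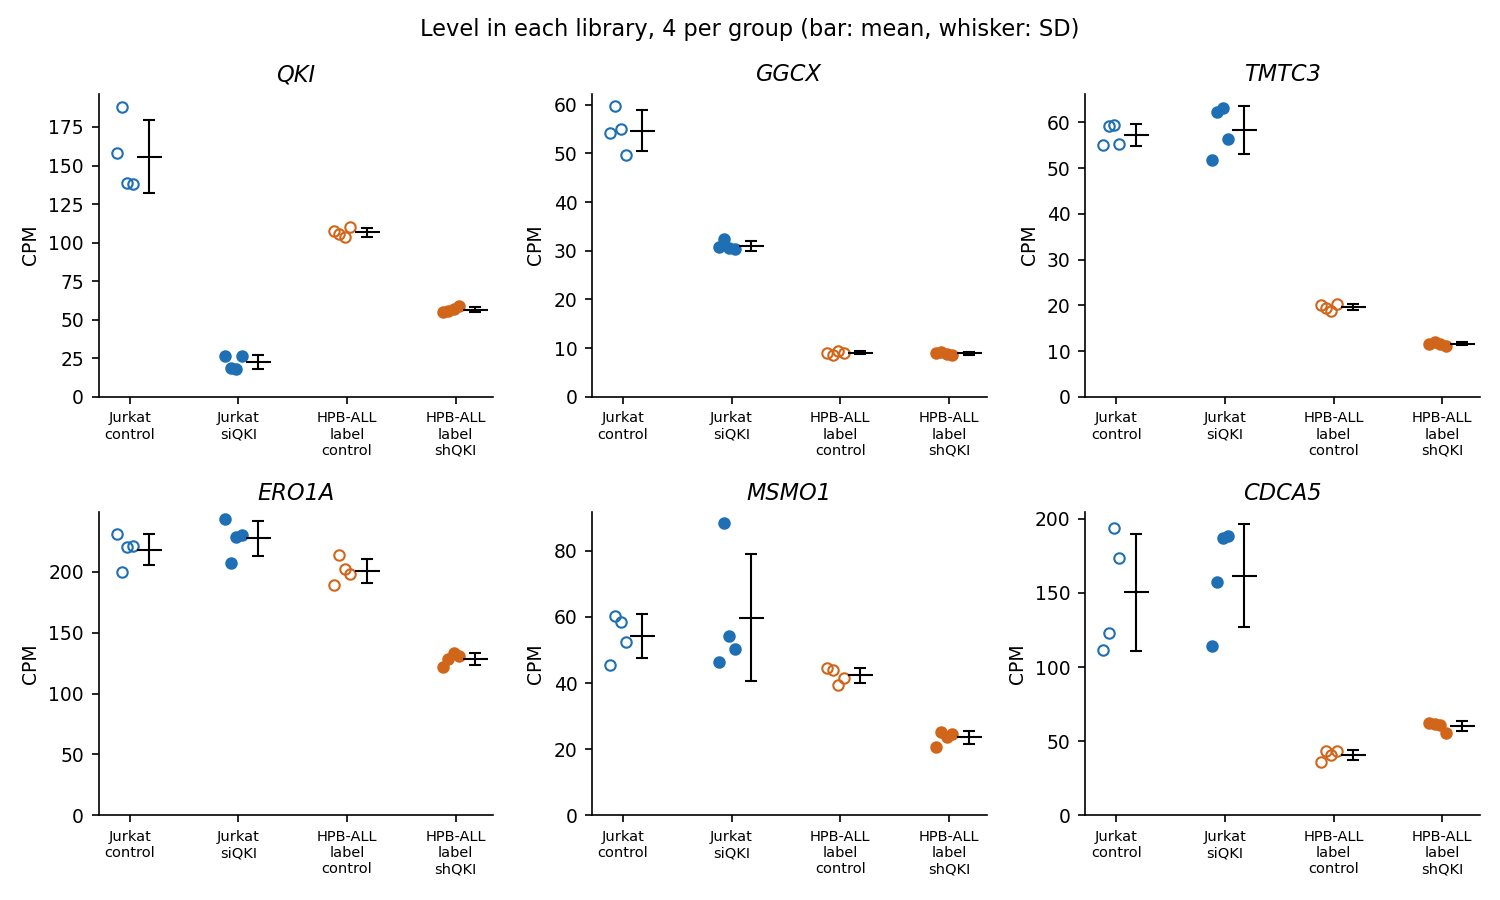
Level of 6 genes in each library, in CPM (linear axis from 0), with open circles for control and filled circles for QKI knockdown, blue for Jurkat and orange for the libraries labelled HPB-ALL; the bar is the mean and the whisker the SD of 4 libraries. QKI fell in both experiments, GGCX was lower with the siRNA (31.0 against 54.7 CPM on average), and TMTC3, ERO1A and MSMO1 were lower and CDCA5 higher with the shRNA.

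The knockdown effect differed between the experiments for 801 of 15730 genes, which is 5.09% (edgeR fits per experiment, Wald test of the difference, Benjamini-Hochberg adjusted p under 0.05). The difference was positive, that is higher in Jurkat, for 440 genes (2.8%) and negative for 361 (2.29%), and 3320 genes had an unadjusted p under 0.05. Called or not, the difference was positive in 7845 of the 15730 genes and negative in 7885. On the same genes, the QKI siRNA changed 8 in Jurkat (0.0509%) and the QKI shRNA changed 3628 in the cells labelled HPB-ALL (23.1%), 1851 of them up (11.8%) and 1777 down (11.3%). Of the 801 genes, 726 had changed with the shRNA only, 1 in Jurkat only, 3 in both with the same sign and 71 in neither experiment. None had changed in both with opposite signs. The larger of the 2 effects was that of the shRNA in 656 of the 801 genes (81.9%), against 56.2% of all genes tested. The effects were of opposite sign in 675 of them and in 7965 of all 15730 genes, and choosing genes by a large difference favours opposite signs. Among the genes with a positive difference, 439 of 440 had a negative shRNA effect, and among those with a negative difference, 355 of 361 had a positive one. The median size of the difference was 0.39 on the log2 scale in the called genes and 0.16 in all genes. In 25 called genes it was at least 1, that is 2-fold, positive in 20 and negative in 5. That count includes weakly expressed genes, such as HLA-DQB1 (difference 1.75, mean 0.247 CPM with shNTC). Among genes expressed highly enough for the naming rule described with the processing, HLA-DRB1 (1.14) and GPRIN3 (1.09) led the positive side. MSMO1 came next at 0.95. On the negative side QKI stood at -1.89, and GGCX followed at -0.79. The 4 Jurkat pair ratios lay outside the range of the 4 shRNA ratios in 784 of the 801 genes, against 19.5% of all genes tested. The called genes were chosen by the difference of these same ratios. That choice favours both this separation and the signs of the shRNA effect given above, so neither is separate support.

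Across genes, the estimated effects of the 2 knockdowns were close to unrelated. Over the 1851 genes that rose with the shRNA the median effect was 0.21 there and -0.0034 in Jurkat, where 903 of them (48.8%) were positive. Over the 1776 genes other than QKI that fell with the shRNA the median effect was -0.25 there and 0.0084 in Jurkat, where 950 (53.5%) were positive. Across 15729 genes other than QKI, the log2 fold changes of the experiments had a Pearson r of 0.080 and a Spearman rho of 0.035. These describe genes measured in the same libraries, which are not independent replicates. The Jurkat effects were also about as small as their errors, with a median size of 0.0894 and a median standard error of 0.0891. Errors of that size weaken such correlations whatever the true relation. Of the 3628 genes changed by the shRNA, 729 (20.1%) also passed the test of the difference and 2899 did not. For those 2899 the data do not show that the effects differ, nor that they are alike. The 95% interval of the difference lay within 1.5-fold either way for 9926 of all genes tested (63.1%) and within 2-fold for 12657 (80.5%).

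**Figure D2:**
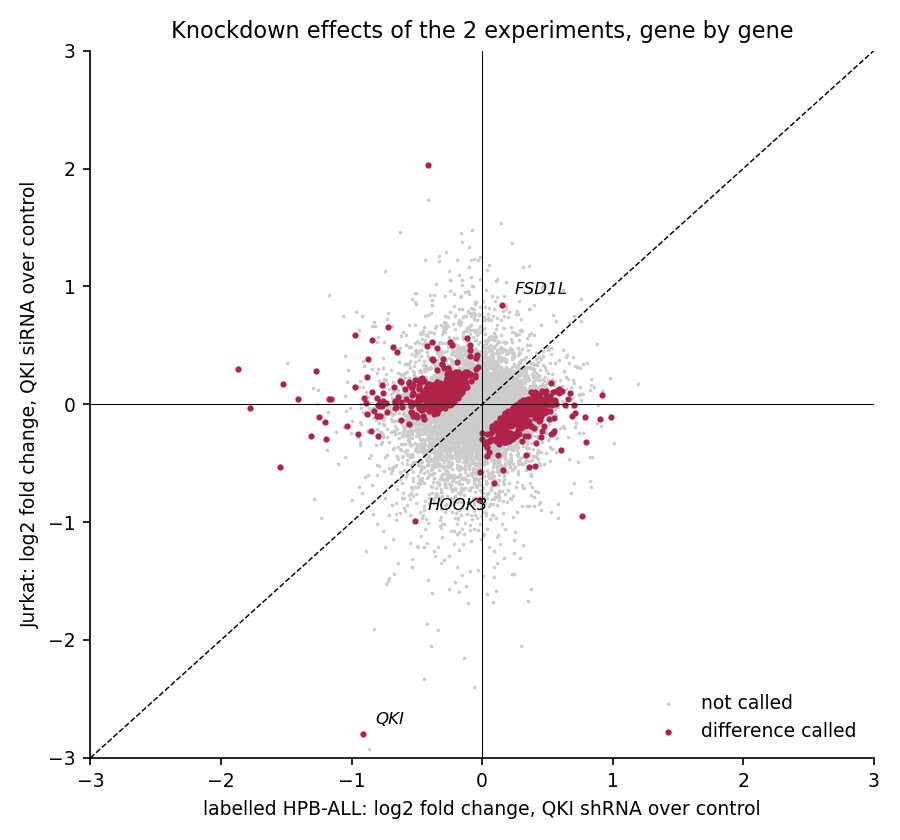
Each of the 15730 genes by its log2 fold change with the QKI shRNA in the libraries labelled HPB-ALL (horizontal axis) and with the QKI siRNA in Jurkat (vertical axis); red points are the 801 genes whose difference passed the test, and the dashed line marks equal effects. Most red points lie along the horizontal axis, near 0 in Jurkat, and QKI stands apart at the lower left.

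The genes that had changed in Jurkat were few, and for most of them the shRNA effect had the same sign and was smaller. There were 8 in the shared set: QKI, HOOK3, GGCX, MT-ND6, UFC1, RBL1 and ATP8A1 fell, and FSD1L rose. Of these, QKI, HOOK3, ATP8A1, FSD1L and RBL1 had also changed with the shRNA in the same direction. The difference passed the test for QKI, GGCX, FSD1L and HOOK3. These 8 were chosen by their Jurkat effect, so the size of that effect is a description.

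GGCX, the gamma-glutamyl carboxylase that uses vitamin K to modify clotting factors and other proteins, had the clearest effect in Jurkat alone. It lies at chr2:85544723-85561547 on the minus strand and overlaps MAT2A on the opposite strand, so reads of the 2 genes could be mixed if counting ignored strand. The Jurkat controls held 54.2, 59.7, 55.1 and 49.6 CPM of GGCX and the QKI siRNA libraries 30.8, 32.5, 30.5 and 30.4 CPM. The libraries labelled HPB-ALL held 9.05, 8.69, 9.38 and 9.07 CPM with shNTC and 9.06, 9.30, 8.72 and 8.56 CPM with shQKI. All 4 Jurkat pairs fell, and the shRNA groups overlapped. GGCX changed by -0.81 (SE 0.06) in Jurkat and by -0.02 (SE 0.05) with the shRNA, a difference of -0.79 (SE 0.08, 95% interval -0.96 to -0.63, edgeR adjusted p = 7.45e-06). The other 6 tested genes of the vitamin K cycle list, which holds VKORC1 and NQO1 among others, gave no called difference.

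FSD1L, which encodes a protein with a fibronectin type III and a SPRY domain, was the one gene that rose in Jurkat. It lies at chr9:105447796-105552433 and overlaps the pseudogene RALGAPA1P1 on the same strand. Its level went from 21, 18.7, 11.4 and 10.5 CPM to 43.2, 29.4, 20.1 and 19.1 CPM in the Jurkat pairs, and every pair rose although the groups overlapped. With the shRNA it went from 16.8 to 17.8 CPM over the controls to 18.4 to 20.1 CPM, without overlap. The effect was 0.84 (SE 0.08) against 0.15 (SE 0.04), a difference of 0.69 (SE 0.09, edgeR adjusted p = 2.56e-04).

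HOOK3, which links dynein and cargo to microtubules, fell in both experiments. The 4 Jurkat pairs went from 121, 145, 69.0 and 70.8 CPM to 75.0, 56.1, 34.8 and 37.6 CPM. The libraries labelled HPB-ALL went from 115 to 122 CPM over the controls to 83.2 to 86.3 CPM, without overlap. The effect was -0.99 (SE 0.09) in Jurkat and -0.51 (SE 0.03) with the shRNA, a difference of -0.47 (SE 0.10, edgeR adjusted p = 0.0135). HOOK3 overlaps RNF170 on the opposite strand.

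ATP8A1, a phospholipid flippase, fell by nearly the same amount in both. Its effect was -0.48 (SE 0.06) in Jurkat and -0.48 (SE 0.08) with the shRNA, and the difference of 0.01 had a 95% interval of -0.19 to 0.21. Jurkat pairs went from 89.8, 97.9, 53.3 and 59.0 CPM to 59.8, 72.0, 39.9 and 42.9 CPM. The level of ATP8A1 was much lower in the cells labelled HPB-ALL, 8.28 to 10.3 CPM with shNTC and 6.09 to 7.03 CPM with shQKI. RBL1, the pocket protein p107, fell by 0.48 in Jurkat and by 0.26 with the shRNA, and its difference of -0.22 (95% interval -0.39 to -0.06) did not pass (edgeR adjusted p = 0.102).

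UFC1, the conjugating enzyme of the ubiquitin-like modifier UFM1, turned on 1 library. The Jurkat pairs went from 80.6, 67.2, 122 and 112 CPM to 38.2, 38.6, 69.4 and 78.0 CPM. The libraries with shNTC held 65.4 to 72.0 CPM, and those with shQKI held 66.0, 69.4, 68.8 and 34.2 CPM, so that replicate 4 alone was low. With all libraries the difference of -0.59 (SE 0.19) did not pass (edgeR adjusted p = 0.0771). Without shQKI replicate 4 it was -0.77 and passed. MT-ND6, a respiratory chain subunit and whose gene lies on the light strand of mitochondrial DNA, fell by 0.82 in Jurkat. Its shRNA effect of -0.37 (SE 0.19) and its difference of -0.45 (95% interval -0.91 to 0.00069) did not pass (edgeR adjusted p = 0.237 for the difference).

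**Figure D3:**
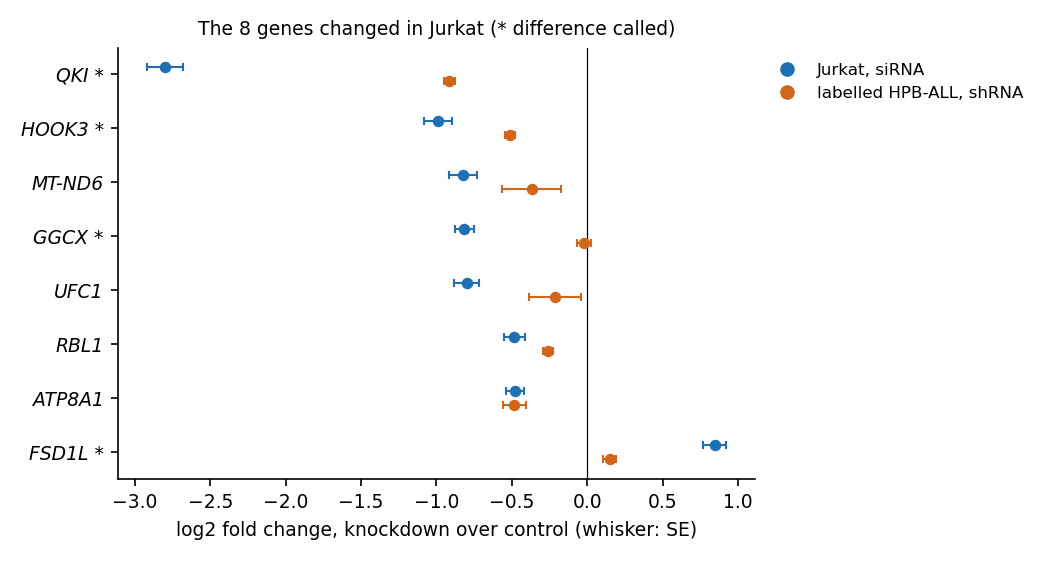
Log2 fold change of the 8 genes that changed in Jurkat, in Jurkat (blue) and in the libraries labelled HPB-ALL (orange); points are edgeR estimates from 4 libraries per group, whiskers their standard errors, and a star marks a called difference. The 2 estimates coincide for ATP8A1 at -0.48 and lie farthest apart for QKI, at -2.80 and -0.91.

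Letters of the QKI response element were looked for in the transcripts of these genes, since they are the sequence the protein is known to bind. The element was written as ACTAAC or ACTAAT, then 1 to 20 bases, then TAAC or TAAT, on the transcript strand of the longest protein-coding GENCODE transcript of each gene. QKI, FSD1L and HOOK3 held it, each in the 3′ UTR, and GGCX, UFC1, RBL1, MT-ND6 and ATP8A1 did not. The sites of QKI and FSD1L are shown because those genes moved most in Jurkat in each direction, with both parts of the element in capitals.
QKI site 1: ACTAACtctggactttgtctgtttatTAAC
QKI site 2: ACTAATtgaccatcTAAT
FSD1L site 1: ACTAATgcacacagaaattTAAT
FSD1L site 2: ACTAATtcatactataagacagaTAAT
The QKI sites begin at base 4663 and base 8815 of a transcript of 9463 bases, and the FSD1L sites at base 4651 and base 6427 of one of 7664 bases. The letters occur in 1637 of 11799 coding genes tested (13.9%, median transcript length 3415 bases). They occur in 138 of 755 coding genes with a called difference (18.3%, median length 3811 bases) and in 480 of 3226 changed by the shRNA (14.9%, median length 3727 bases). Per kilobase of transcript this is 0.0421 elements in all coding genes tested, 0.0527 in those with a called difference and 0.0435 in those changed by the shRNA. The 8 genes changed in Jurkat have long transcripts (median 7616 bases, against 3415), with 0.11 elements per kilobase. A match is a description of letters and not of binding, and the shares were not tested.

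Most genes with the smallest p of the difference, QKI and GGCX aside, had moved with the shRNA and stayed near their control level in Jurkat. TMTC3, a transferase of the endoplasmic reticulum that attaches mannose to cadherins, lies at chr12:88142296-88199887. It stood at 55.0, 59.2, 59.4 and 55.4 CPM in the Jurkat controls and 51.8, 62.3, 63.1 and 56.4 CPM with the siRNA. In the libraries labelled HPB-ALL it stood at 20.1, 19.4, 18.8 and 20.4 CPM with shNTC and 11.6, 12.1, 11.5 and 11.2 CPM with shQKI. Jurkat groups overlapped and shRNA groups did not. The difference for TMTC3 was 0.79 (SE 0.08, edgeR adjusted p = 7.45e-06).

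ERO1A, the oxidase that passes electrons from protein disulfide isomerases to oxygen during disulfide bond formation, lies at chr14:52639916-52695900. It held 200 to 231 CPM in the Jurkat controls and 208 to 243 CPM with the siRNA, and all 4 pairs were slightly higher. With the shRNA it went from 189, 214, 202 and 198 CPM to 122, 128, 134 and 131 CPM. The difference was 0.70 (SE 0.07, edgeR adjusted p = 7.85e-06). QKI, GGCX, TMTC3 and ERO1A were the 4 genes called in each of the 22 alternative analyses that were run.

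Further genes of this kind included ADAM9, a membrane metalloprotease, with a difference of 0.69 (SE 0.08). The shQKI libraries held 50.2 to 57.6 CPM of ADAM9 against 91.3 to 102 CPM with shNTC, and its Jurkat level was 49.9 to 70.4 CPM in the controls and 45.6 to 65.9 CPM with the siRNA. NUS1, a subunit of the enzyme that makes the dolichol precursor, had a difference of 0.65 (SE 0.08). NUS1 fell from 84.5 to 92.7 CPM to 57.5 to 67.7 CPM with the shRNA, while all 4 Jurkat pairs were higher with the siRNA (ratios 0.10 to 0.22 on the log2 scale). GMDS, which makes the first step from GDP-mannose to GDP-fucose, gave 0.69 (SE 0.09). SLC39A10, a zinc importer, gave 0.69 (SE 0.07), from a fall of 0.67 with the shRNA and a Jurkat effect of 0.02.

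A pair of protein kinase A subunits was among them, the regulatory PRKAR2B and the catalytic PRKACB. PRKAR2B went from 24.0 to 29.2 CPM with shNTC to 16.3 to 17.7 CPM with shQKI, and from 29.1 to 36.9 CPM to 31.4 to 40.2 CPM in Jurkat, a difference of 0.72 (SE 0.09). PRKACB went from 38.4 to 41.0 CPM to 27.8 to 30.1 CPM with the shRNA, and from 95.8 to 132 CPM to 103 to 134 CPM in Jurkat, a difference of 0.56 (SE 0.07). Both passed (edgeR adjusted p = 7.77e-05 and 2.18e-04). The other positive differences among the 12 with the smallest p were those of CMSS1, BACE2, MSMO1 and MYO7B, at 0.70 to 0.95.

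On the negative side, most of the genes named here rose with the shRNA and were level or slightly lower with the siRNA. CRK, an adaptor with SH2 and SH3 domains, went from 50.5 to 56.3 CPM to 66.9 to 77.4 CPM with the shRNA. All 4 Jurkat pairs of CRK were lower with the siRNA, at log2 ratios of -0.20 to -0.05, and the difference was -0.57 (SE 0.08, edgeR adjusted p = 1.63e-04). MED22, a subunit of the Mediator complex, rose from 35.3 to 36.2 CPM to 49.4 to 51.9 CPM with the shRNA, and its difference was -0.56 (SE 0.07). UBE3C, a ubiquitin ligase that acts on the proteasome, rose from 124 to 134 CPM to 165 to 168 CPM with the shRNA. Its 4 Jurkat pair ratios were -0.14, -0.15, -0.16 and -0.20, and its difference was -0.51 (SE 0.07). TULP3, WDR62, ZEB1 and CCDC26 also had differences between -0.64 and -0.51, and BCL7A, PCGF3 and CNN2 between -0.52 and -0.47. BCL7A, PCGF3 and CNN2 were lower in all 4 Jurkat pairs. Their Jurkat effects of -0.30, -0.34 and -0.31 were larger than their rises of 0.23, 0.13 and 0.17 with the shRNA, but did not pass alone. ZEB1, a repressor of epithelial genes, stood at 121 to 190 CPM in the Jurkat controls and at 3.98 to 4.54 CPM with shNTC, so its fold changes start from very unlike levels.

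In 145 of the 801 genes the Jurkat effect was the larger, with 62 positive and 83 negative differences. Only 7 of these had a Jurkat effect of 1.5-fold or more. PCGF3, a subunit of a polycomb repressive complex, went from 82.7, 77.7, 84.0 and 83.2 CPM to 68.7, 59.9, 63.3 and 67.4 CPM in Jurkat. It rose from 61.8 to 67.8 CPM to 69.9 to 73.9 CPM with the shRNA (edgeR adjusted p = 0.0294 for that effect). The difference was -0.47 (SE 0.07, edgeR adjusted p = 9.16e-04), although the Jurkat effect of -0.34 (SE 0.06) did not pass alone (edgeR adjusted p = 0.164). FBXL12, a substrate receptor of an SCF ubiquitin ligase, went from 21.5 to 25.6 CPM to 14.3 to 18.6 CPM in Jurkat without overlap. Its difference was -0.71 (SE 0.11, edgeR adjusted p = 0.00174), with effects of -0.55 in Jurkat and 0.16 with the shRNA.

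PTBP2, the neuronal paralogue of the splicing repressor PTBP1, had the clearest difference among splicing regulators and was higher in Jurkat only. The gene lies at chr1:96721665-96823738. Its Jurkat pairs went from 64.6, 57.4, 44.7 and 53 CPM to 83.1, 86.7, 59.7 and 65.0 CPM, and every pair was higher. The libraries labelled HPB-ALL held 24.7 to 30.1 CPM with shNTC and 26.0 to 27.5 CPM with shQKI. The effect was 0.42 (SE 0.07, edgeR adjusted p = 0.0743) in Jurkat and -0.04 (SE 0.06) with the shRNA, and the difference of 0.45 (SE 0.09) passed (edgeR adjusted p = 0.00414). Of 58 splicing regulators tested, 3 had a positive difference that passed (PTBP2, HNRNPD and HNRNPLL) and 1 a negative one, that of the kinase CLK3. That is 6.9% of the list against 5.09% of all genes. The list's median difference was -0.02. The number called was 1 without Jurkat pair 1 or pair 4 and 2 without shQKI replicate 3, and HNRNPLL lost its call in 12 of 22 alternatives. HNRNPLL, which controls CD45 splicing in lymphocytes, stood at 96.3 to 126 CPM in the Jurkat controls but at 1.44 to 1.67 CPM with shNTC.

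Of the 16 tested transcripts that other work has tied to QKI, 1 had a called difference, or 6.25% of the list against 5.09% of all genes. This was ERBIN, a scaffold protein of the basolateral membrane, which changed by -0.06 in Jurkat and rose by 0.23 with the shRNA, a difference of -0.29 (SE 0.08, edgeR adjusted p = 0.0352). The median difference of that list was -0.05. The other STAR family genes tested, KHDRBS1 and SF1, had differences of 0.13 and -0.09 that did not pass.

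Genes of cholesterol synthesis and uptake were lower with the shRNA and not with the siRNA. The pathway turns acetyl-CoA through mevalonate, isoprenoids and squalene into cholesterol, and its genes are known to be induced together by SREBP factors when sterol is scarce. Of 25 listed genes, 23 passed the count filter in both experiments, and the difference was positive in all 23. It passed in 10 (43.5% of the list, against 2.8% of all genes in that direction), and the list's median difference was 0.35 against -0.00075 in all genes. The median effect of the list was 0.08 in Jurkat and -0.23 with the shRNA, which lowered 17 of the 23. None passed in Jurkat. All lists were written with earlier results of these data known.

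The called members lay at several steps of the pathway, and not at all of them. HMGCS1, which makes HMG-CoA, had a difference of 0.37. IDI1 and FDPS, which make and join isoprenoid units, had 0.53 and 0.51. FDFT1 and SQLE, which make squalene and its epoxide, had 0.54 and 0.43. MSMO1, the sterol C4-methyl oxidase, had the highest, 0.95 (SE 0.11, 95% interval 0.71 to 1.19, edgeR adjusted p = 7.77e-05). EBP, SC5D and DHCR7, of the last steps, had 0.47, 0.35 and 0.46. The differences of INSIG1, STARD4, NSDHL and SREBF2 were 0.22 to 0.37 and did not pass. Those of MVK, PMVK and MVD, the mevalonate steps, of LSS, lanosterol synthase, and of TM7SF2 and ACAT2 were 0.09 to 0.18 and did not pass either.

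MSMO1 stood at 45.6, 60.2, 58.3 and 52.4 CPM in the Jurkat controls and at 46.4, 88.3, 54.2 and 50.2 CPM with the siRNA, so Jurkat pair 2 moved up most. It went from 44.5, 44.0, 39.5 and 41.5 CPM with shNTC to 20.7, 25.1, 23.7 and 24.7 CPM with shQKI, without overlap. IDI1 went from 95.6 to 106 CPM to 73.4 to 79.7 CPM with the shRNA. In Jurkat its pair ratios were 0.01, 0.37, 0.06 and 0.15, again highest in pair 2. Without Jurkat pair 2 the list still had 22 of 23 positive differences and 9 called, with a median of 0.26. Without Jurkat pair 1 the number called was 5.

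**Figure D4:**
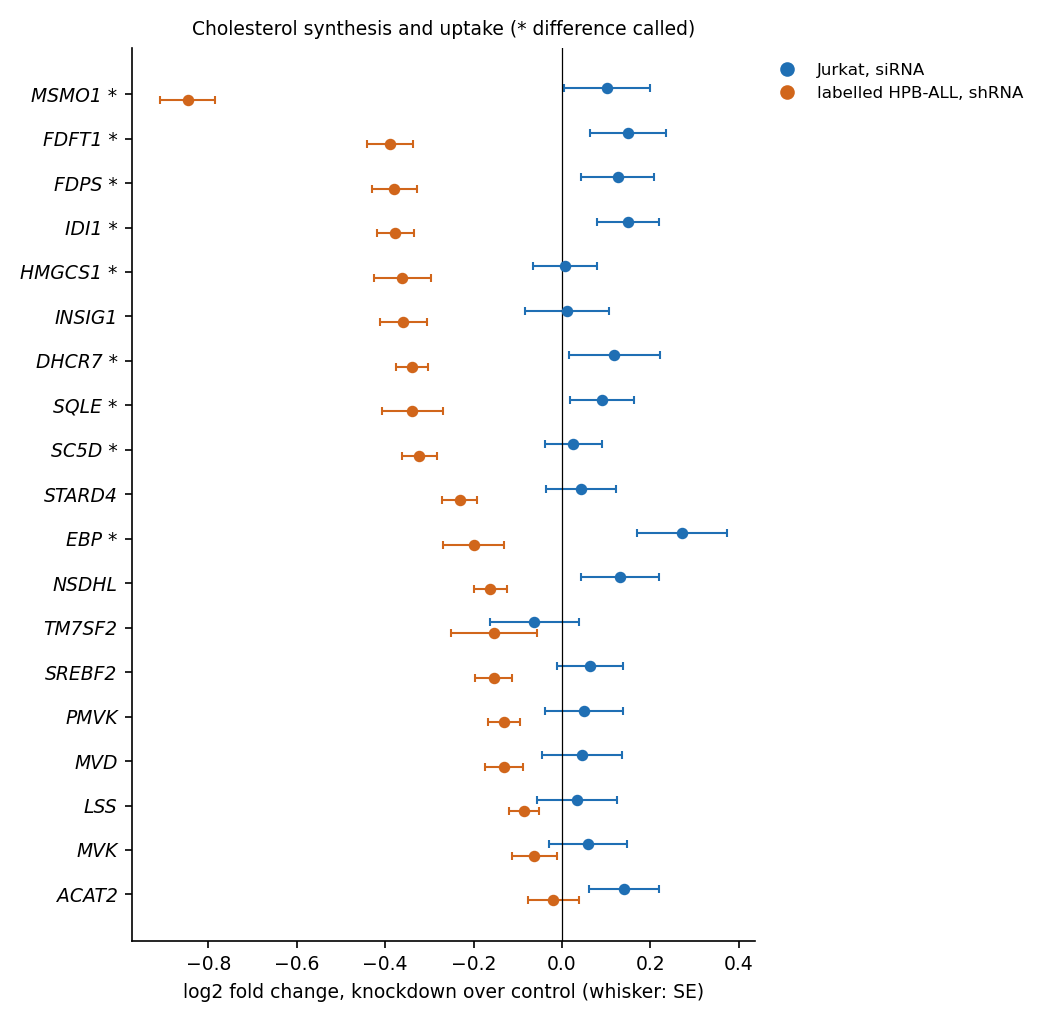
Log2 fold change of 19 of the 23 tested genes of cholesterol synthesis and uptake in Jurkat (blue) and in the libraries labelled HPB-ALL (orange), in the order of the shRNA effect, with standard errors as whiskers and a star for a called difference; the others, CYP51A1 (below 1 CPM in Jurkat) among them, are left out of the plot. Every blue point plotted lies to the right of its orange point, and the widest gap is that of MSMO1.

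The promoters of 2 of these genes are shown because the members moved together. They are the called members with the largest differences whose promoter in the RefSeq table (GRCh38.p14, 250 bases before to 50 after the start) holds a CCAAT box, the site of the factor NF-Y. CCAAT and its reverse complement ATTGG are in capitals. MSMO1 spans chr4:165327419-165327718 and FDPS chr1:155308616-155308915, both on the plus strand.
MSMO1: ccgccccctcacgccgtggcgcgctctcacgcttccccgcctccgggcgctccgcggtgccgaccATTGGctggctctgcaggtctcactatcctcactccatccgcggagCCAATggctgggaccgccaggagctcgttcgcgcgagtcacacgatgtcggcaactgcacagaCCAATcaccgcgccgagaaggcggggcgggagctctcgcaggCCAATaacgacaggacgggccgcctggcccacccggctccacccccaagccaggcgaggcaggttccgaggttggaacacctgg
FDPS: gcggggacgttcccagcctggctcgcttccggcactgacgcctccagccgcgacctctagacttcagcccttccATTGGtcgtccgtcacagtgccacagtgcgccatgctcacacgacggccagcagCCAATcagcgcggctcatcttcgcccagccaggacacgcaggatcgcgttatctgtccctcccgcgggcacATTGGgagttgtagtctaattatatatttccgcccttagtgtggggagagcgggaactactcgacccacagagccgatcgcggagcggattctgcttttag
MSMO1 holds 4 such boxes and FDPS 3. CCAAT, on either strand, is in 14 of the 17 promoters of the list that the table holds (82.4%) and in 3866 of 10572 promoters of genes tested (36.6%). The letters TCACNCCAC, a form of the sterol regulatory element, are in 1 of the 17 promoters of the cholesterol list, that of SREBF2, and in 1.01% of all promoters of genes tested.

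Genes of fatty acid synthesis shared part of this pattern. Of 12 tested, FADS1, ACLY and SCD had positive differences that passed, at 0.43, 0.31 and 0.37. That is 25% of the list, against 2.8% of all genes in that direction. Without Jurkat pair 1 the number called was 1. FADS1, a desaturase that overlaps FADS2 on the opposite strand, went from 150 to 158 CPM to 115 to 122 CPM with the shRNA. In Jurkat it stood at 222, 307, 102 and 125 CPM in the controls and 211, 323, 114 and 128 CPM with the siRNA, so its level varied more between pairs than within them. The list's median difference was 0.11, and that of SREBF1, the SREBP gene tied to fatty acid synthesis, was -0.24 and did not pass (edgeR adjusted p = 0.122).

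Genes of protein folding were shifted the same way by less. Among 20 chaperones and enzymes of the endoplasmic reticulum the difference was positive in 19, against 7845 of all 15730 genes. It passed in 3 (15% of the list, against 2.8% of all genes in that direction), with a median of 0.21. HERPUD1, PDIA4 and HYOU1 were those called, at 0.32, 0.31 and 0.28. PDIA4, a protein disulfide isomerase, went from 137 to 150 CPM to 108 to 116 CPM with the shRNA, and in Jurkat its pair ratios ran from -0.22 to 0.16. The number called in this list was 0 without Jurkat pair 1 or pair 4 and 5 without shNTC replicate 3. Of 16 cytosolic heat shock genes 14 had a positive difference. DNAJA1 and HSP90AA1 passed (12.5%, against 2.8% of all genes in that direction), with 1 called without Jurkat pair 1 or pair 3. DNAJA1, a partner of HSP70, went from 81.6 to 90.8 CPM to 59.9 to 65.1 CPM with the shRNA, and its difference was 0.51 (SE 0.09, edgeR adjusted p = 0.0021).

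Nuclear-encoded subunits of the respiratory chain had mostly positive differences of small size. Of 49 tested, 42 were positive and 4 passed (8.16%, against 5.09% of all genes), with a median of 0.21. NDUFB10 of complex I was highest at 0.65 (SE 0.16), followed by COX5B, COX6C and COX5A of complex IV at 0.55, 0.49 and 0.41. NDUFB10 had an effect of 0.34 in Jurkat that did not pass (edgeR adjusted p = 0.692), with pair ratios of both signs, and fell by 0.31 with the shRNA. No subunit passed in Jurkat. None of these was called when Jurkat pair 1 was left out, although 43 of 49 were then positive. The number called was 1 without pair 4, 7 without pair 3 and 8 without shNTC replicate 3. The mitochondrially encoded messenger RNAs had a median effect of -0.29 in both experiments, and none of the 12 had a called difference. Only 1 of them passed in Jurkat and 4 passed with the shRNA. On leaving out libraries or Jurkat pairs, their median difference ran from -0.192 to 0.134, with 2 to 11 positive.

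MHC class II genes, which present peptides to CD4+ T cells, were lower with the shRNA, but several had low levels in at least 1 experiment. HLA-DPB1 averaged 0.349 CPM in the Jurkat controls and 2.50 CPM with shNTC. HLA-DQB1 went the other way, with 6.65 CPM in the Jurkat controls but 0.247 CPM with shNTC and 0.0748 CPM with shQKI. The difference was positive in all 11 tested genes, with a median of 1.02, and passed in 5 (45.5%, against 5.09% of all genes). Those called were HLA-DRB1, HLA-DQB1, HLA-DPB1, HLA-DRB5 and HLA-DPA1. The number called was 2 without Jurkat pair 1, 3 or 4 and 3 without shQKI replicate 3. HLA-DRB1 stood at 1.08, 1.15, 3.77 and 2.78 CPM in the Jurkat controls and 0.98, 1.57, 2.91 and 2.27 CPM with the siRNA. It went from 19.7, 19.8, 18.7 and 18 CPM with shNTC to 7.74, 8.81, 7.98 and 7.47 CPM with shQKI, without overlap. Its difference was 1.14 (SE 0.19, 95% interval 0.74 to 1.55, edgeR adjusted p = 0.00422). CD74, CIITA, HLA-DRA and HLA-DQA1 passed the count filter in the libraries labelled HPB-ALL alone, so no difference exists for them. Among the 5 genes of this list kept by a filter of at least 1 CPM in at least 4 libraries of each experiment, 2 were called and the median difference was 0.22. HLA genes are near-identical copies and reads can be shared between them.

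The class I genes HLA-B and HLA-C, expressed in both kinds of cell, had positive differences of 0.42 and 0.43 that passed. The annotated HLA-B gene overlaps HLA-C on the same strand, so the 2 differences may not be separate results. HLA-B went from 1110, 1190, 1120 and 1120 CPM to 904, 951, 913 and 935 CPM with the shRNA, without overlap. In Jurkat it went from 68.2, 79.4, 62.2 and 63.0 CPM to 79.0, 91.2, 63.2 and 65.1 CPM, and all 4 pairs were higher although the groups overlapped. NLRC5, the activator of class I genes, had a negative difference of -0.36 that passed (edgeR adjusted p = 0.0452). Of 18 tested genes of class I and peptide loading 22.2% passed, against 5.09% of all genes, and the median difference of the list was 0.13. Without Jurkat pair 1 the number called was 1.

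Genes of G2 and mitosis showed the opposite sign. Of 59 tested, 45 had a negative difference and 12 of these passed (20.3% of the list, against 2.29% of all genes in that direction), with a median of -0.12. None passed with a positive sign. The shRNA raised 31 of the 59 and lowered 2, and no member passed in Jurkat. Those called were SGO1, FOXM1, CDCA5, HJURP, ANLN, CDCA3, KIF11, CDC25B, KIF23, NDC80, ESPL1 and CENPI, which serve cohesion, centromere assembly, spindle motors and cytokinesis.

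CDCA5 (sororin, which stabilises cohesin) went from 36.0, 43.2, 40.4 and 43.1 CPM to 62.5, 61.9, 61.0 and 55.4 CPM with the shRNA. In Jurkat it went from 111, 123, 194 and 174 CPM to 114, 158, 187 and 188 CPM, and the groups overlapped. The difference was -0.45 (SE 0.09, edgeR adjusted p = 0.00706). FOXM1, a transcription factor of mitotic genes that overlaps RHNO1 and ITFG2 on the opposite strand, went from 56.2 to 61.5 CPM to 71.5 to 77.5 CPM with the shRNA. In Jurkat it stood at 112 to 129 CPM in the controls and 115 to 120 CPM with the siRNA, and its difference was -0.38 (SE 0.07). Jurkat pairs weighed on this list: 2 were called without pair 1 and 7 without pair 4. Without pair 3, 7 were called with a negative sign and 2 with a positive one, and 26 of 59 differences were positive.

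Promoters of 2 called mitotic genes are shown, those with the largest differences that hold TTTGAA, the cell cycle homology region through which such genes are known to be repressed outside G2 and mitosis. TTTGAA and CCAAT, on either strand, are in capitals. HJURP spans chr2:233854486-233854785 and CDCA3 chr12:6851237-6851536 (GRCh38.p14, RefSeq), both on the minus strand and written in the direction of the gene.
HJURP: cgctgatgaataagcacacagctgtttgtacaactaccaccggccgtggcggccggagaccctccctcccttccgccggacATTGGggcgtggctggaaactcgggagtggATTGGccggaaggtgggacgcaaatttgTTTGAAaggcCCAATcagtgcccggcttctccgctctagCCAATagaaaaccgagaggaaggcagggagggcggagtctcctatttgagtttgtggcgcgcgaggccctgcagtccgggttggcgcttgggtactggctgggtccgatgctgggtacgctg
CDCA3: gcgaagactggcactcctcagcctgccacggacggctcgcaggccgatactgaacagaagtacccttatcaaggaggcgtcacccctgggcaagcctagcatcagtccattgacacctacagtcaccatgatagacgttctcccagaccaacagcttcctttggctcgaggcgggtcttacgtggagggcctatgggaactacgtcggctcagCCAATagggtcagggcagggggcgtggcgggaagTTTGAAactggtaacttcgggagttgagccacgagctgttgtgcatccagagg
TTTGAA is in 34 of the 50 promoters of the list that the table holds (68.0%), in 1 of 42 of the S phase list and in 9.79% of all promoters of genes tested. It is in 45 of 304 promoters of genes with a called negative difference (14.8%) and in 35 of 356 with a called positive one (9.83%). The negative set includes called genes of the G2 and mitosis list, so its share is not separate from that of the list. SGO1, CDCA5, CENPI and CDC25B, also called, hold no TTTGAA in this window, which says only that these letters are not there.

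Genes of S phase split by sign. Of 50 tested, 4 had a positive and 3 a negative difference that passed (14% of the list, against 5.09% of all genes), and the median was 0.03. The number called was 1 without Jurkat pair 1, 11 without pair 2, 4 without pair 3 and 2 without pair 4. The positive ones were MCM2 and MCM6 of the replicative helicase, GINS2 and POLD1, at 0.29 to 0.33. The negative ones were E2F2, EXO1 and MCM10, at -0.46 to -0.27. MCM6 went from 269, 393, 250 and 268 CPM to 306, 441, 285 and 318 CPM in the Jurkat pairs, every pair being higher. With the shRNA it went from 356 to 416 CPM to 340 to 380 CPM, with overlap, and its difference was 0.33 (SE 0.08, edgeR adjusted p = 0.0176). E2F2, an activator of S phase genes, went from 16.6 to 19.4 CPM to 26.6 to 28.3 CPM with the shRNA, against 88.2 to 210 CPM and 99.3 to 213 CPM in Jurkat. E2F2 was higher in both experiments, by 0.13 in Jurkat, where it did not pass, and by 0.59 with the shRNA.

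**Figure D5:**
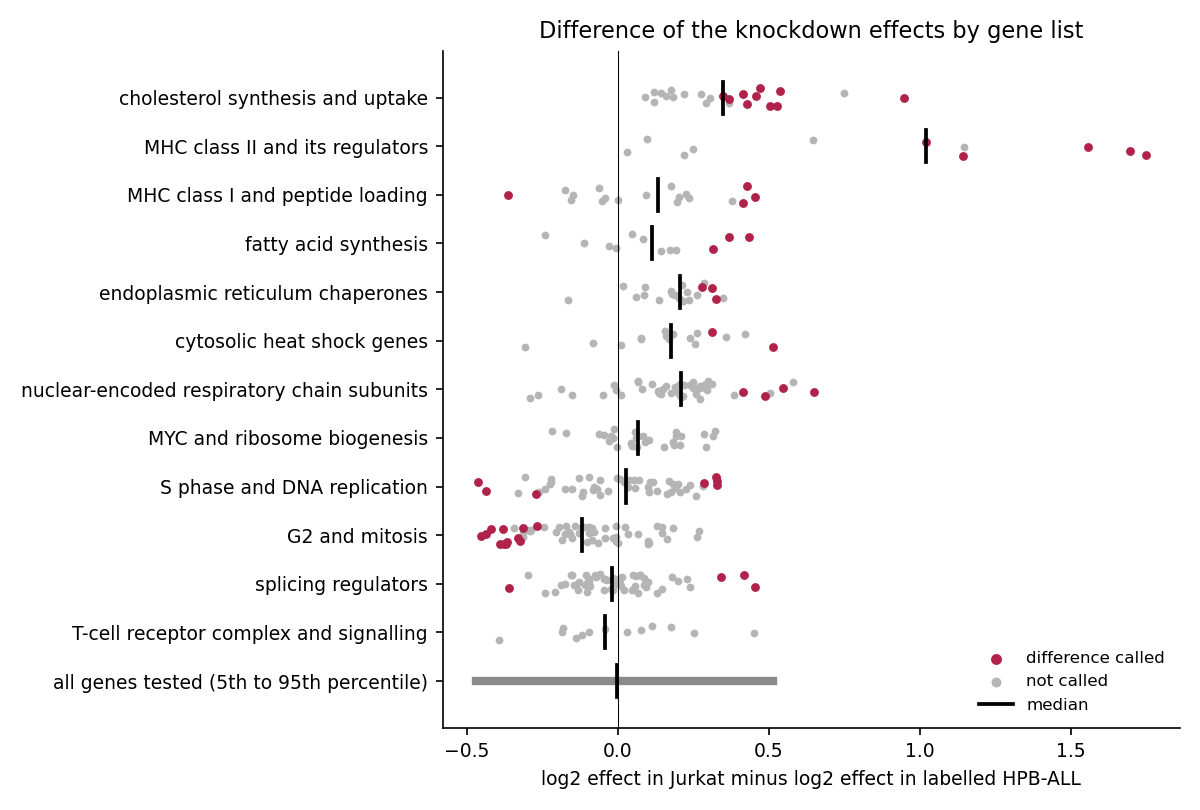
Difference of the log2 knockdown effects, Jurkat minus labelled HPB-ALL, for each tested gene of 12 lists; red points passed the test, black bars are list medians, and the grey bar spans the 5th to 95th percentile of all genes tested. Cholesterol genes and MHC class II genes lie entirely to the right of 0, and the called genes of G2 and mitosis lie to its left.

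In other lists few members or none had a called difference. No member passed among 30 genes of MYC and ribosome biogenesis (median 0.07), 13 of T-cell receptor signalling (median -0.04), 9 of UFMylation (median -0.05) or 5 tested myeloid markers (median 0.26, positive in 4). Nor did any of 5 B-cell markers (median 0.14) or 2 fibroblast and epithelial markers (median -0.77) pass. A further 15 genes of T-cell receptor signalling and 36 histone genes passed the count filter in Jurkat alone. Histone genes took 1.63% to 5.50% of counts in Jurkat and at most 0.00576% in the libraries labelled HPB-ALL. Of 23 tested, 1 (H1-2) had a called difference, or 4.35% of the list against 5.09% of all genes. The median difference of the 23 was -0.23, and it was negative in 17. One large positive difference came with a wide spread: RPS23, a protein of the small ribosomal subunit, held 273, 306, 236 and 357 CPM with shNTC and 133, 279, 146 and 174 CPM with shQKI. Its groups overlapped, and its difference was 0.83 (SE 0.21, edgeR adjusted p = 0.0357).

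The number of called differences depended on the Jurkat pairs. It was 5 when the Jurkat libraries were fitted without their pairing (QKI, GGCX, TMTC3, ERO1A and CHRNA3; 836 genes at an unadjusted p under 0.05), 161 without Jurkat pair 1 and 241 without pair 4. Of the 801 genes, 130 were called in every alternative other than that without pairing and that against a 1.2-fold difference. In bulk RNA, a lower level may mean fewer cells of a type or less RNA per cell, and these cannot be told apart.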

How the data were processed

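Gene-level RNA counts were analysed for 16 knockdown libraries, with 4 untreated HPB-ALL libraries for marker levels. The other 20 untreated libraries were not used here. The authors deposited whole-number read counts per gene, from reads processed with Trimmomatic 0.39 and STAR 2.7.11b on GRCh38, per the submitters' processing notes. Whether counting used strand is unknown from these sources, so overlapping genes are uncertain. Rows that name no gene entered neither the library sizes nor the tests. They held 13.0% to 15.1% of a library's counts in the libraries labelled HPB-ALL, and no such share was computed for Jurkat.

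Each experiment was fitted separately with edgeR 4.0.16 in R 4.3.3, using TMM factors, filterByExpr and quasi-likelihood dispersions. The test of a difference was a two-sided Wald test of Jurkat minus labelled HPB-ALL with Welch-Satterthwaite degrees of freedom (median 19.5), adjusted over all 15730 genes by the Benjamini-Hochberg method at 0.05. Jurkat replicate numbers entered as a block: libraries of the same number deviated together (correlations 0.618 to 0.786), whereas those labelled HPB-ALL did not (-0.222 to 0.0398). All replicates differed by more than counting noise. P-values measure the spread between these libraries.

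CPM values are counts scaled to a library total of 1000000 (TMM-adjusted in the knockdown libraries), and shRNA ratios are set against the mean control with 0.1 CPM added. Alternatives covered the block, dispersion, normalization, filters, DESeq2 1.42.0, limma-voom (limma 3.58.1), a 1.2-fold threshold and leaving out libraries. Genes were named by a rule: in each direction the 12 with the smallest p and the 6 with the largest difference above an average log2 CPM of 1, up to 3 called members of each list, and genes called in Jurkat or in both. Other list members are named beside their counts, after their values were seen. The members, lists and tests were chosen with earlier results of these data known. Some members counted in the lists are not reported here by name. Positions are from GENCODE on GRCh38.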

Additional observations from a re-analysis of the deposited data

Results flagged for a closer look

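The difference between the 2 experiments itself drew attention: 801 genes passed its test, and 30 of the 34 genes whose levels are given per library were among them. On the log2 scale, Jurkat minus labelled HPB-ALL, the differences of genes that had changed in Jurkat were -1.885 for QKI, -0.793 for GGCX, -0.473 for HOOK3 and 0.695 for FSD1L. Positive differences were 0.785 for TMTC3, 0.703 for ERO1A, 0.688 for ADAM9, 0.645 for NUS1, 0.723 for PRKAR2B, 0.556 for PRKACB, 0.694 for GMDS, 0.694 for SLC39A10 and 0.827 for RPS23. Those of list members were 1.144 for HLA-DRB1, 0.416 for HLA-B, 0.949 for MSMO1, 0.526 for IDI1, 0.434 for FADS1, 0.513 for DNAJA1, 0.311 for PDIA4, 0.454 for PTBP2 and 0.327 for MCM6. Negative differences were -0.573 for CRK, -0.556 for MED22, -0.509 for UBE3C, -0.469 for PCGF3, -0.713 for FBXL12, -0.452 for CDCA5, -0.379 for FOXM1 and -0.464 for E2F2.

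In 10 of 136 groups of 4 libraries, 1 library stood apart from the other three, where chance gives about 1 in 20. In Jurkat these were GGCX with the QKI siRNA (32.5 CPM in replicate 2, others 30.4 to 30.8), RBL1 with the QKI siRNA (70.55 CPM in replicate 3, others 79.8 to 81.6), PRKACB with the QKI siRNA (102.5 CPM in replicate 1, others 128.6 to 133.8), GMDS with the QKI siRNA (49.8 CPM in replicate 2, others 38.7 to 40.5) and MCM6 in the controls (393.1 CPM in replicate 2, others 250.1 to 268.8). In the libraries labelled HPB-ALL with shNTC they were HOOK3 (115.5 CPM in replicate 4, others 121.8 to 122.4), FSD1L (17.85 CPM in replicate 1, others 16.75 to 16.92), FADS1 (149.6 CPM in replicate 3, others 157.5 to 158.4) and DNAJA1 (90.8 CPM in replicate 4, others 81.6 to 82.2). With shQKI it was UFC1 (34.2 CPM in replicate 4, others 66.0 to 69.4).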

How the results depend on the processing

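The number of genes with a called difference was 801, and was within 1.5 times of this with RLE factors, both other filters, DESeq2, limma-voom, no histone or mitochondrial genes, and the replicate block in both experiments (718 to 1092 called). It was 5 without the replicate block in Jurkat, 18 against a 1.2-fold difference, 1211 with 1 dispersion shared by both experiments, and 161 to 1051 when each library or Jurkat pair was left out. The loss without Jurkat pair 1 (161) or pair 4 (241) comes with fewer samples; the count was 1051 without pair 2 and 658 without pair 3, and the cause was not tested. Without a count filter 44.7% of calls were positive, against 54.9%. The count for Jurkat alone was 8. It was 1 without the block, 136 with shared dispersion, 156 without a filter, 37 with DESeq2 and 5 to 17 on leaving out pairs. The shRNA count was 3628, and 2065 with shared dispersion; the cause was not tested. The QKI difference ranged from -2.02 to -1.71 and was called in all 22 alternatives.

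Of 75 other named genes that were called, 3 (GGCX, TMTC3 and ERO1A) kept the call in every alternative. Most of the others lost it without the block, and 63 lost it against 1.2-fold. The sign reversed for ATP8A1 only, whose difference is near 0: -0.000451 without the block, -0.0184 without a filter, and -0.0584 to 0.0505 on leaving out libraries. Depth was 68379879 counts or more per library. The median standard error was larger in Jurkat (0.0891) than with the shRNA (0.0597), but not for every gene. For RPS23 it was 0.072 in Jurkat and 0.199 with the shRNA, and for UFC1 0.082 and 0.170.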

Other observations

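A few called differences lay in lists not described above. Among them were 1 of 14 tested T-ALL transcription factors (7.14%, median difference -0.07), 2 of 19 p53 targets (10.5%, median -0.04) and 1 of 15 BCL2 family genes (6.67%, median -0.0032). There were also 1 of 27 immediate early genes (3.7%, median 0.08) and 2 of 29 genes of adhesion and migration (6.9%, median 0.02). The share over all genes tested was 5.09%. Without Jurkat pair 1 each of these lists had 0 called except the immediate early genes. Among 12 NOTCH receptors and targets 1 was called (8.33%, median -0.06), and among 22 integrated stress response genes 1 (4.55%, median 0.08). Of 40 interferon response genes, 1 passed with a positive and 1 with a negative difference (5%, median -0.04). Of 30 genes of glycolysis and hypoxia, 1 passed (3.33%, median 0.03). HOXA10, a homeobox gene, stayed level in Jurkat (-0.00016) and fell by 0.53 with the shRNA, a difference of 0.53 (SE 0.11). BTG2 and FAS, both p53 targets, rose by 0.47 and 0.36 with the shRNA, with differences of -0.53 and -0.36. Of the 19 p53 targets the difference was positive in 8 and negative in 11, and the shRNA raised 6 and lowered 3, with a median effect of 0.02. BCL2, the apoptosis inhibitor, fell by 0.33 with the shRNA and had a difference of 0.29 (SE 0.07). SPRED1, an inhibitor of RAS signalling, had 0.56 (SE 0.08), with a level of 89.5 to 128 CPM in the Jurkat controls and 10.9 to 11.8 CPM with shNTC. ITGB7, an integrin chain, fell by 1.2 with the shRNA and had a difference of 0.90 (SE 0.22). SNHG1, a host gene of small nucleolar RNAs, rose from 64.5 to 73.9 CPM to 94.1 to 114 CPM with the shRNA and had a difference of -0.58 (SE 0.10).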
